A study of Mus musculus with 8 samples.

Results

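The RIG-I-like receptors and the TBK1 axis are described here through 9 mouse genes in HCA-1 liver tumors. They were chosen by symbol and role, with earlier results of these data known. The receptors Ddx58, Ifih1 and Dhx58 were set against the adaptor Mavs, the kinases Tbk1 and Ikbke and the kinase scaffold Tank, and Ddx60 and Zc3hav1 were kept apart as accessory RNA sensors. They are 9 of the 55536 genes in the count table, and all 9 were among the 15998 genes with enough counts to be tested.

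HCA-1 is a mouse hepatocellular carcinoma line, here grown orthotopically in the liver of male C3H mice given as 6 to 8 weeks old by the labels and 4 to 6 weeks old by the methods. On day 17 after implantation, mice received imiquimod (IMQ), a TLR7 agonist, carried intravenously in phospholipid-free small unilamellar vesicles (PFSUV-IMQ, 4 mg kg−1 by the methods), and 4 tumors were taken 3 h later (IMQNP replicates 1, 2, 3 and 4). Another 4 tumors came from mice given saline (Control replicates 1, 3, 4 and 5). Empty vesicles and free IMQ are not among these tumors, so drug and carrier cannot be told apart, and every tumor derives from the same cell line.

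RIG-I (Ddx58) and MDA5 (Ifih1) are cytosolic helicases that bind double-stranded or 5′-triphosphate viral RNA, and LGP2 (Dhx58) binds such RNA but lacks the signaling domains of the other two. Once bound, RIG-I and MDA5 engage MAVS on the mitochondrial surface, and MAVS recruits the kinases TBK1 and IKKε (Ikbke), which phosphorylate the transcription factors that switch on type I interferon genes. The receptors are themselves textbook interferon-stimulated genes. IMQ is sensed by a different receptor, the endosomal TLR7, which signals through MyD88 rather than MAVS.

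The receptors and accessory sensors rose after PFSUV-IMQ, and no adaptor or kinase gene passed the same test. Of the 9 genes, 5 were called higher and 0 lower at an adjusted p under 0.05, where 2.46% of all tested genes were called higher, 0.219% lower and 2.68% in either direction (edgeR's quasi-likelihood test, Benjamini-Hochberg adjustment over 15998 genes). All 3 receptors and both accessory sensors made up those 5. At an unadjusted p under 0.05, 7 of the 9 were higher, against 8.34% of all tested genes. Of the 4 adaptor and kinase genes, 0 were called by edgeR, 2 had an unadjusted p under 0.05 (Tbk1 and Ikbke), and 1 was called by the Wald test of DESeq2 (Ikbke). In 7 of the 9 genes the groups did not overlap and the PFSUV-IMQ tumors were the higher ones, which held for 6.00% of all tested genes.

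Levels are given as normalized CPM, read counts scaled to a common library size with edgeR's TMM factors. Counts per tumor totalled 16883911 to 27687756 after saline and 17008151 to 18527613 after PFSUV-IMQ, and the detection floor of 3 counts corresponded to 0.108 to 0.178 CPM, which covers counting error only. Among 40 marker genes in 7 lists, the summed level of every list overlapped between the groups and no marker was at 0 in all 8 tumors. Single markers leaned one way in 2 lists. All 5 neutrophil markers had estimates above 0 (median log2 fold change 1.17, 2 at an unadjusted p under 0.05 in edgeR). Of these, 0 were called by edgeR, and IMQNP replicate 2 held the highest level of each. All 7 macrophage and Kupffer cell markers had estimates below 0 (median -0.42, 2 at an unadjusted p under 0.05 in edgeR). Of all 15998 tested genes, 1334 were higher and 744 lower at an unadjusted p under 0.05 in edgeR, and 8637 estimates lay below 0. Keratin genes Krt8 and Krt18 were at 444 to 941 and 550 to 1256 CPM over all 8 tumors. The other tumor and epithelial markers, Epcam (5.43 to 11.4 CPM), Afp (2.1 to 6.08 CPM) and Gpc3 (0.629 to 1.99 CPM), were low. Hepatocyte markers summed to 4257 to 32394 CPM after saline and 6068 to 33365 CPM after PFSUV-IMQ, with the highest sums in Control replicate 4 and IMQNP replicate 2. Macrophage and Kupffer cell markers summed to 709 to 1033 and 462 to 933 CPM, and 1 of the 7, Vsig4, was called lower (adjusted p = 0.0453, edgeR). Plasmacytoid dendritic cell markers were low but counted, summing to 4.88 to 8.46 and 3.86 to 10.5 CPM. Sums for neutrophils were 16.9 to 59.5 and 33.2 to 150 CPM, for T and NK cells 35.1 to 77.1 and 38.7 to 102 CPM, for endothelial cells 107 to 179 and 90.3 to 143 CPM, and for tumor and epithelial genes 1272 to 2132 and 1006 to 2057 CPM. The part of these cell types in the results below was not tested. In bulk tumors, fewer cells of a type and less RNA per cell cannot be told apart.

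The start-site sequences of the genes were searched for short words that known transcription factors recognise. Stretches are printed for Ddx58, Ifih1 and Ddx60, which rose, and for Mavs, Tbk1 and Tank, which did not pass the test. Those of Zc3hav1, which also rose, and of Ikbke are not printed. Promoters were taken from RefSeq on GRCm38.p6, from 250 bases before to 50 after each start, and 8 of the 9 genes had an entry, Dhx58 being the missing one. Positions are counted from the start, and capitals mark a match. The words, searched on both strands, were GAAA and GAAA with any 2 bases between them for the interferon-stimulated response element (ISRE), TTCNNNGAA for the STAT-binding GAS element, and GGG and TTTCC with any 2 bases between them for NF-κB.
Ddx58, chr4:40239804-40239833, minus strand: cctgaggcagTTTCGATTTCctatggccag
Ifih1, chr2:62646206-62646235, minus strand: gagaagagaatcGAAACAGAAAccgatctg
Ddx60, chr8:61928007-61928086, plus strand: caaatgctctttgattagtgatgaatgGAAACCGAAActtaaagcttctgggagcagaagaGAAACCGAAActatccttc
Mavs, chr2:131233983-131234062, plus strand: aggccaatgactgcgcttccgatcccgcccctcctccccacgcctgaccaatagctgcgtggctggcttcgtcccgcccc
Tbk1, chr10:121586795-121586874, minus strand: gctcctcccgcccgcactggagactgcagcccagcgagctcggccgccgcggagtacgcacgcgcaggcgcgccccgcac
Tank, chr2:61593017-61593096, plus strand: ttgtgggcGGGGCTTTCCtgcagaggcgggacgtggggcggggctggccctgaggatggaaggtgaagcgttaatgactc
The ISRE word stood at position 3 in Ddx58, at position 33 in Ifih1 and at positions -53 and -19 in Ddx60. The windows of Zc3hav1, which was called higher, and of Mavs, Tbk1, Ikbke and Tank did not hold it. It was in 3.44% of the 32851 RefSeq promoters. The NF-κB word, held by 1.63% of all promoters, stood at position -72 of the printed Tank start, which is 1 of 4 Tank starts in the table. The same letters lay at position -127 of another Tank start, and the windows of the remaining Tank starts did not hold the word. The GAS word was in 8.30% of all promoters and in none of the windows of these 8 genes. A match describes letters in a window and not a bound site.

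Ddx58 (ENSMUSG00000040296, chr4:40203773-40239828, minus strand, GRCm38) encodes RIG-I, the receptor for short double-stranded RNA with a 5′ triphosphate. Its level was 50.3, 55.3, 50.4 and 38.1 CPM in Control replicates 1, 3, 4 and 5 and 204, 424, 244 and 301 CPM in IMQNP replicates 1, 2, 3 and 4. The groups were far apart, and the lowest PFSUV-IMQ tumor stood 3.68-fold above the highest saline tumor. Group means were 48.5 ± 7.33 and 293 ± 96.1 CPM (SD, n = 4 each), and the rise on the log2 scale was 2.59 (SE 0.26, 95% interval 2.02 to 3.17, adjusted p = 9.6e-04, edgeR).

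Ifih1 (ENSMUSG00000026896, chr2:62595798-62646255, minus strand) encodes MDA5, the receptor for long double-stranded RNA. It measured 44.1, 42.7, 41.7 and 21.2 CPM after saline and 239, 692, 251 and 377 CPM after PFSUV-IMQ, in the same replicate order. Control replicate 5 was low and IMQNP replicate 2 high within their groups, and the groups did not overlap. Its log2 fold change was 3.38 (SE 0.41, 95% interval 2.47 to 4.29, adjusted p = 0.00261, edgeR), from 37.4 ± 10.9 to 389 ± 211 CPM.

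Dhx58 (ENSMUSG00000017830, chr11:100694884-100704271, minus strand) encodes LGP2, which modulates the other two receptors. Saline tumors held 8.66, 11.0, 11.5 and 10.3 CPM, and PFSUV-IMQ tumors held 79.6, 210.2, 94.0 and 94.4 CPM. The saline tumors lay close together, and the PFSUV-IMQ tumors did too apart from replicate 2. The rise was the largest of the 3 receptors by point estimate, with a log2 fold change of 3.53 (SE 0.33, 95% interval 2.79 to 4.27, adjusted p = 8.0e-04, edgeR), although the intervals of the 3 receptors overlapped. An antisense gene, Dhx58os, covers 4.31% of its exonic bases, and whether counting used strand is not given in the sources used here.

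Ddx60 (ENSMUSG00000037921, chr8:61928087-62038244, plus strand) encodes a helicase described as promoting RIG-I-like receptor signaling. Its level was 10.5, 17.0, 14.4 and 8.04 CPM after saline and 60.5, 318, 150 and 142 CPM after PFSUV-IMQ. The PFSUV-IMQ tumors were widely spread, the highest at 5.26 times the lowest, yet all stood above the saline tumors. Its log2 fold change of 3.74 was the largest of the 9 genes (SE 0.49, 95% interval 2.64 to 4.84, adjusted p = 0.00386, edgeR) and ranked 46 among the 15998 tested genes. Means went from 12.5 ± 4.01 to 168 ± 108 CPM.

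Zc3hav1 (ENSMUSG00000029826, chr6:38305286-38354603, minus strand) encodes the zinc finger antiviral protein ZAP, which binds CpG-rich RNA and promotes its decay. It was at 223, 212, 152 and 176 CPM after saline and 374, 442, 406 and 536 CPM after PFSUV-IMQ. It had the highest level of the 9 in 7 of the 8 tumors, IMQNP replicate 2 being the exception with more Ifih1, and the groups did not overlap. Its means were 191 ± 32.8 and 439 ± 70.1 CPM, and its log2 fold change was 1.20 (SE 0.20, 95% interval 0.77 to 1.64, adjusted p = 0.0116, edgeR), with an interval that ended below those of all 3 receptors. Without IMQNP replicate 4 the call was lost (log2 fold change 1.10, adjusted p = 0.0515, edgeR).

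**Figure D1:**
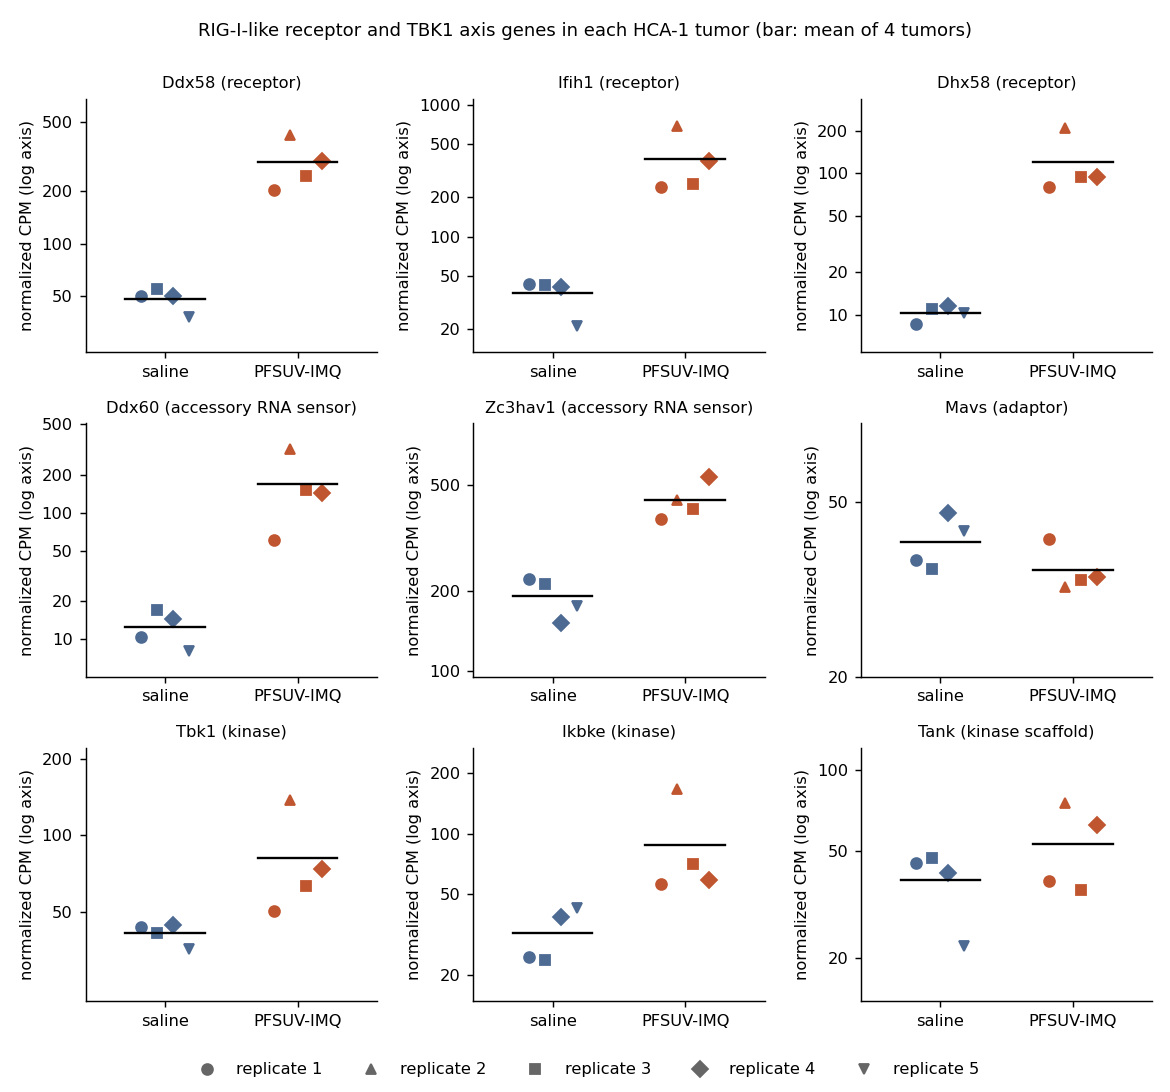
Normalized CPM (log axis, a scale per panel) of each gene in the 4 saline and 4 PFSUV-IMQ tumors, with marker shapes for replicate numbers and bars for group means. Ddx58, Ifih1, Dhx58, Ddx60, Zc3hav1, Tbk1 and Ikbke show no overlap between groups, whereas Mavs and Tank do, and IMQNP replicate 2 is the highest tumor in 7 of the 9 panels.

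Mavs (ENSMUSG00000037523, chr2:131234063-131248025, plus strand) encodes the adaptor on which RIG-I and MDA5 converge. Its level was 36.8, 35.1, 47.0 and 42.8 CPM after saline and 41.2, 32.0, 33.2 and 33.7 CPM after PFSUV-IMQ. The groups overlapped through IMQNP replicate 1, and Mavs was the only gene of the 9 whose estimate lay below 0. The means were 40.4 ± 5.50 and 35.0 ± 4.18 CPM, with a log2 fold change of -0.21 (SE 0.16, 95% interval -0.56 to 0.15, adjusted p = 0.683, edgeR).

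Tbk1 (ENSMUSG00000020115, chr10:121546455-121586787, minus strand) encodes the kinase shared by the RNA and DNA sensing pathways. It was at 43.7, 41.3, 44.5 and 35.8 CPM after saline and 50.5, 138, 63.4 and 73.8 CPM after PFSUV-IMQ. The groups did not overlap, but the gap between the nearest pair of tumors was 1.13-fold. The log2 fold change of 0.98 (SE 0.29, 95% interval 0.33 to 1.62) did not pass the test (adjusted p = 0.145, edgeR). Without IMQNP replicate 2, the highest tumor, it was 0.58 (adjusted p = 0.166, edgeR).

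Ikbke (ENSMUSG00000042349, chr1:131254343-131279606, minus strand) encodes IKKε, the inducible relative of TBK1. Its level was 24.3, 23.6, 38.7 and 42.7 CPM after saline and 56.3, 167, 71.0 and 58.7 CPM after PFSUV-IMQ. Control replicates 4 and 5 were well above replicates 1 and 3, IMQNP replicate 2 stood far above the rest, and the groups did not overlap. The log2 fold change of 1.45 (SE 0.38, 95% interval 0.59 to 2.31) had an adjusted p of 0.0985 in edgeR, and this call depended on the tool. It passed with the Wald test of DESeq2 (log2 fold change 1.46, adjusted p = 0.00927) and in edgeR without a filter on low counts (adjusted p = 0.0191). Without IMQNP replicate 2 it fell to 0.93 (adjusted p = 0.104, edgeR). The antisense genes Gm28914 and Gm28913 cover 1.76% and 0.721% of its exonic bases.

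Tank (ENSMUSG00000064289, chr2:61578585-61654171, plus strand) encodes a scaffold that holds TBK1 and IKKε to upstream adaptors. It measured 44.9, 47.0, 41.2 and 22.0 CPM after saline and 38.6, 75.7, 35.9 and 62.3 CPM after PFSUV-IMQ. IMQNP replicates 1 and 3 lay within the saline range and replicates 2 and 4 above it. The log2 fold change was 0.45 (SE 0.31, 95% interval -0.24 to 1.14, adjusted p = 0.633, edgeR), an interval that leaves room for a doubling.

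**Figure D2:**
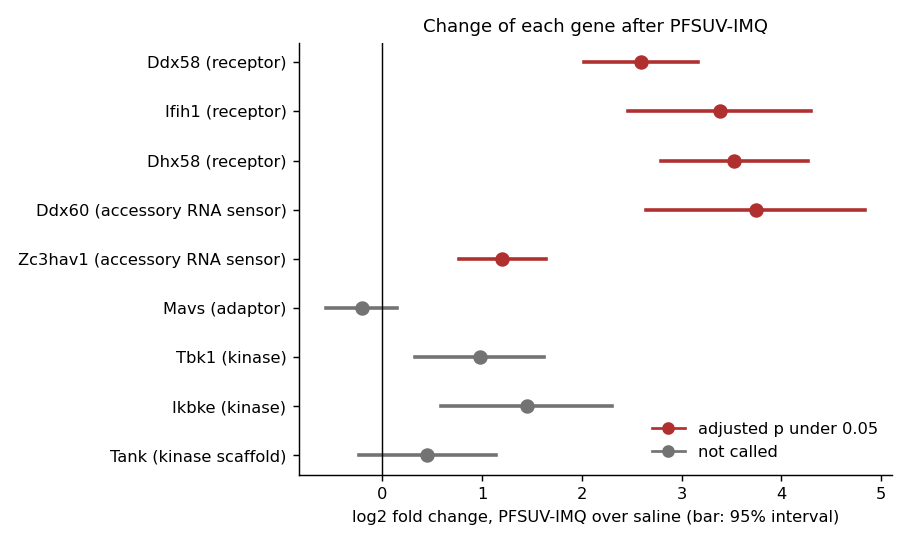
Log2 fold change of each gene (x axis, PFSUV-IMQ over saline, n = 4 each), with points for edgeR estimates, bars for 95% intervals and red for an adjusted p under 0.05. The receptors and Ddx60 lie between 2.59 and 3.74, Zc3hav1 at 1.20, and the adaptor, kinases and scaffold between -0.21 and 1.45.

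The contrast between the receptors and the signaling genes downstream of them was also measured within each tumor. The mean log2 CPM of Ddx58, Ifih1 and Dhx58 minus that of Mavs, Tbk1, Ikbke and Tank was -0.44, -0.27, -0.56 and -0.77 in the saline tumors and 1.76, 2.19, 1.89 and 2.0 in the PFSUV-IMQ tumors. The receptor mean thus sat below the adaptor and kinase mean in all 4 saline tumors and above it in all 4 PFSUV-IMQ tumors, and the contrast varied little within a group. Group means were -0.51 ± 0.21 and 1.96 ± 0.18, a difference of 2.47. Of this, the receptor mean moved by 3.09 (4.71 ± 0.25 to 7.80 ± 0.59) and the adaptor and kinase mean by 0.61 (5.22 ± 0.14 to 5.83 ± 0.41). These differences are a description of genes grouped by role with earlier results known, so no p is given. The difference was 2.72 without Ikbke and 2.19 with Ddx60 and Zc3hav1 added to the receptors.

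**Figure D3:**
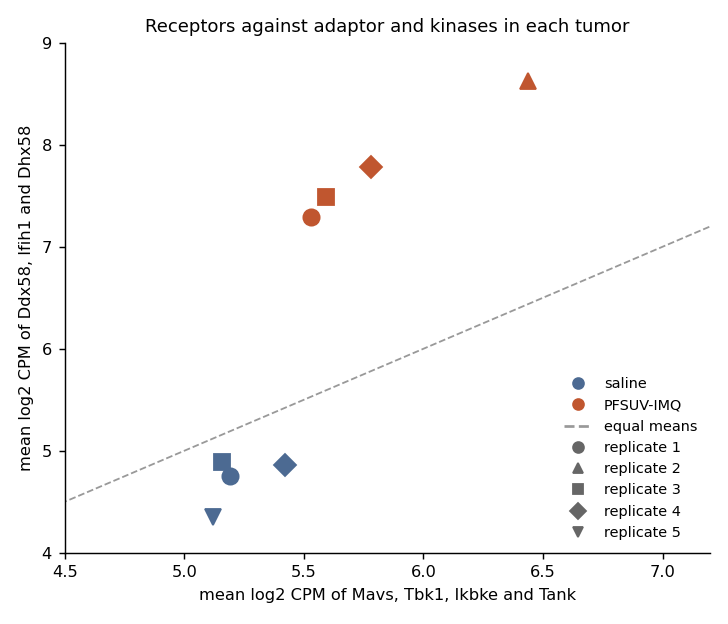
Mean log2 CPM of the 3 receptors (y axis) against that of Mavs, Tbk1, Ikbke and Tank (x axis) in each tumor, with a dashed line where both means are equal. The 4 saline tumors fall below the line and the 4 PFSUV-IMQ tumors above it, and IMQNP replicate 2 is highest on both axes.

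The intervals of the single genes were also set side by side. The upper limits for Mavs, Tbk1 and Tank, at 0.15, 1.62 and 1.14, lay below the lowest lower limit among the receptors, 2.02 for Ddx58. The upper limit for Ikbke, 2.31, reached into the interval of Ddx58 but not into those of Ifih1 and Dhx58. All 12 ratios of a receptor to an adaptor or kinase gene, taken per length within a tumor, had higher values in every PFSUV-IMQ tumor than in any saline tumor. They reuse the same 3 receptors, whose groups did not overlap, and are not separate observations. The ratio of Ddx58 to Tbk1, for instance, was 0.590 to 0.742 after saline and 1.71 to 2.26 after PFSUV-IMQ, and that of Ifih1 to Mavs was 0.203 to 0.497 and 2.37 to 8.86. Such a shift was not particular to the receptors. The ratio of Tbk1 to Mavs was 0.716 to 1.02 after saline and 1.05 to 3.68 after PFSUV-IMQ. That of Ikbke to Mavs was 0.245 to 0.370 and 0.507 to 1.94. The ratios of Ikbke to Tbk1 and of Tank to Mavs, Tbk1 and Ikbke overlapped between groups.

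To compare levels between genes, CPM were divided by the exonic length in kilobases. After saline, Zc3hav1 led at 29.3 ± 5.02 CPM per kb, followed by Mavs (12.1 ± 1.65), Tbk1 (10.6 ± 1.00), Ddx58 (6.89 ± 1.04), Tank (6.36 ± 1.87), Ifih1 (4.58 ± 1.33), Ikbke (3.59 ± 1.09), Dhx58 (3.16 ± 0.373) and Ddx60 (1.44 ± 0.462). Among neighbours in that order, Zc3hav1 and Mavs, Tbk1 and Ddx58, and Dhx58 and Ddx60 did not overlap between tumors, and the other neighbours did. By this length, the adaptor Mavs and the kinase Tbk1 were more abundant in the saline tumors than any of the 3 receptors. The length merges all exons of a gene, giving 7050 bases for Ddx58, 3345 for Mavs and 3910 for Tbk1. Their longest transcripts have 3874, 3057 and 3024 bases. The order of Ddx58 and Mavs in single saline tumors therefore depends on the length used. So does the lack of overlap between Tbk1 and Ddx58.

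After PFSUV-IMQ the order changed to Zc3hav1 (67.4 ± 10.8), Ifih1 (47.7 ± 25.9), Ddx58 (41.6 ± 13.6), Dhx58 (36.5 ± 18.6), Tbk1 (20.8 ± 9.92), Ddx60 (19.3 ± 12.4), Mavs (10.5 ± 1.25), Ikbke (9.79 ± 5.87) and Tank (8.71 ± 3.14 CPM per kb). Every pair of neighbours overlapped. Within the receptors the balance also moved. The per-length ratio of Ifih1 to Ddx58 was 0.480 to 0.756 after saline and 0.887 to 1.41 after PFSUV-IMQ, and that of Dhx58 to Ddx58 was 0.371 to 0.580 and 0.676 to 1.07. Those ranges did not overlap between groups, whereas the ratios of Dhx58 to Ifih1 and of Ikbke to Tbk1 did overlap.

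**Figure D4:**
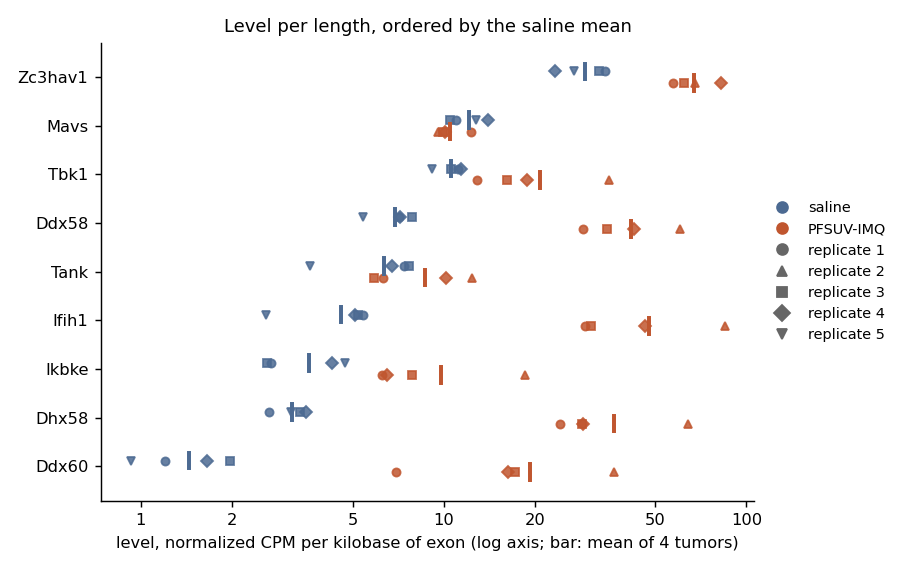
Level of each gene per length (normalized CPM per kilobase of exon, log axis) in each tumor, genes ordered by the saline mean, with vertical bars for group means. The receptors sit below Mavs and Tbk1 after saline and above Mavs in every tumor after PFSUV-IMQ.

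The PFSUV-IMQ tumors differed among themselves, and most of the genes shared the highest and the lowest tumor. IMQNP replicate 2 was the highest tumor of its group for 7 of the 9 genes and replicate 1 the lowest for 7. Mavs ran the other way, highest in replicate 1 and lowest in replicate 2. Zc3hav1 was highest in replicate 4 and Tank lowest in replicate 3. How often replicate 2 was highest over all tested genes was not counted. In the saline group, replicate 5 was the lowest for 5 genes. The share of counts from mitochondrial genes was highest in IMQNP replicate 2 (6.65%), lowest of that group in replicate 1 (1.59%) and lowest of all in Control replicate 5 (1.37%), and its part in these levels was not tested. IMQNP replicate 2 also had the highest sum of its group for 6 of the 7 marker lists and the lowest for the tumor and epithelial list (1006 CPM). Control replicate 4 had a like hepatocyte sum (32394 against 33365 CPM). Its receptor levels were below those of every PFSUV-IMQ tumor, as were those of every saline tumor. The part of hepatocyte content in these levels was not tested. Without IMQNP replicate 2 the log2 fold changes of Ddx58, Ifih1, Dhx58 and Ddx60 were 2.34, 2.93, 3.09 and 3.21, all still called by edgeR.

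Other genes of the pathway, 75 in a list ordered by role, showed a minority that rose beside a majority that did not pass. Of the 68 tested, 9 were called higher and 0 lower by edgeR, beside 2.46% and 0.219% of all tested genes, with a median log2 fold change of -0.02 beside -0.03 over all tested genes. With 32 estimates above 0 and 36 below, the list as a whole was centred near 0. Among the 18 MAVS partners and 10 TBK1 complex partners 1 each was called, among 17 modifiers of the receptors 2, among 10 other helicases and double-stranded RNA-binding proteins 2, among 5 other adaptors and sensors that reach TBK1 2, and among 4 transcription factors 1.

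Trim25, a ubiquitin ligase known for activating RIG-I, had the smallest adjusted p of the list. It was at 89.0, 87.0, 66.5 and 76.5 CPM after saline and 330, 500, 382 and 403 CPM after PFSUV-IMQ. All PFSUV-IMQ tumors were well above the saline tumors, with a log2 fold change of 2.34 (SE 0.19, adjusted p = 5.5e-04, edgeR). Rnf135 (Riplet), also a RIG-I ligase, rose 2.0 on the log2 scale, with means of 8.49 ± 2.06 and 33.9 ± 14.8 CPM (SE 0.31, adjusted p = 0.00940, edgeR). The remaining 15 receptor modifiers were not called. Besides deubiquitinases and phosphatases they include 2 further ubiquitin ligases of RIG-I, named after their values were seen, Mex3c (log2 fold change 0.09, SE 0.31, adjusted p = 0.952, edgeR) and Rnf125 (log2 fold change -0.42, SE 0.41, adjusted p = 0.769, edgeR).

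Eif2ak2 (PKR), a kinase that shuts down translation on binding double-stranded RNA, had means of 53.1 ± 4.55 and 321 ± 89.0 CPM and rose by 2.59 on the log2 scale (SE 0.23, adjusted p = 6.7e-04, edgeR). Adar, which edits adenosines in double-stranded RNA and so limits sensing of a cell's own RNA by MDA5, had means of 40.3 ± 4.38 and 163 ± 39.9 CPM and rose by 2.02 (SE 0.20, adjusted p = 9.6e-04, edgeR). Chrnb2 on the opposite strand covers 16.8% of the exonic bases of Adar. Of the 4 ZAP cofactors, Khnyn had the smallest adjusted p (0.33 on the log2 scale, SE 0.15, adjusted p = 0.390, edgeR). No ZAP cofactor had an unadjusted p under 0.05 in edgeR or a call in DESeq2. Trim25, which is also known as a cofactor of ZAP and rose, was placed among the receptor modifiers and is not in that count.

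March5, a mitochondrial ubiquitin ligase that acts on MAVS, had means of 108 ± 9.51 and 244 ± 84.4 CPM and rose by 1.17 on the log2 scale (SE 0.23, adjusted p = 0.0306, edgeR). Optn, an adaptor that binds TBK1, had means of 64.5 ± 3.12 and 112 ± 19.5 CPM and rose by 0.80 (SE 0.16, adjusted p = 0.0286, edgeR). Both calls were near the limit. With each of the 8 tumors left out in turn, March5 was called in 2 fits and Optn in 1, with log2 fold changes of 0.89 to 1.29 and 0.66 to 0.87.

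Of the sensors that reach TBK1 by other routes, both Zbp1 and Tlr3 rose. Zbp1, a sensor of Z-form nucleic acids, went from 44.1 ± 14.2 to 327 ± 178 CPM (log2 fold change 2.89, SE 0.39, adjusted p = 0.00424, edgeR). Tlr3, the endosomal receptor for double-stranded RNA, went from 26.0 ± 8.24 to 180 ± 91.0 CPM (log2 fold change 2.79, SE 0.39, adjusted p = 0.00522, edgeR). Cgas, the cytosolic DNA sensor, was named after its values were seen. It had a log2 fold change of 1.03 that missed the threshold in edgeR (adjusted p = 0.0695) and passed in DESeq2 (adjusted p = 0.00931).

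Among the transcription factors, Irf7, which amplifies type I interferon genes, was at 66.3, 71.2, 50.8 and 82.9 CPM after saline and 422, 848, 425 and 387 CPM after PFSUV-IMQ. Its log2 fold change was 2.94 (SE 0.31, adjusted p = 0.00121, edgeR). Irf3, the constitutive substrate of TBK1 and named after its values were seen, was at 41.3 ± 8.82 and 40.5 ± 4.42 CPM (log2 fold change -0.03, 95% interval -0.44 to 0.38, adjusted p = 0.970, edgeR).

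**Figure D5:**
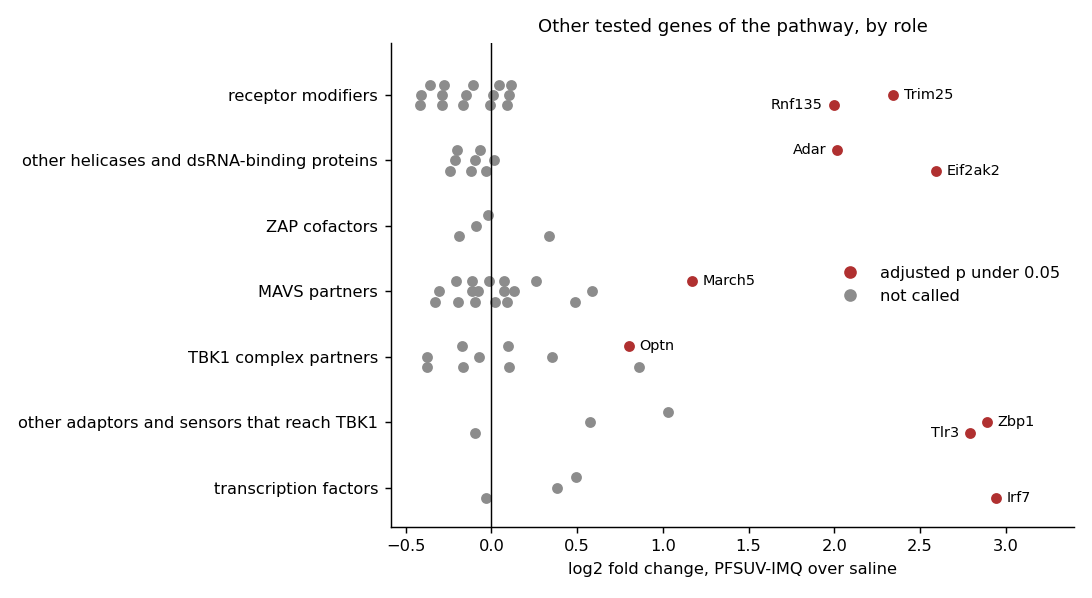
Log2 fold change (x axis, PFSUV-IMQ over saline, n = 4 each) of the 68 tested pathway genes, a row per role, with red points for an adjusted p under 0.05 in edgeR. The 9 called genes, labelled by symbol, lie between 0.80 and 2.94, most of the others lie near 0, and the uncalled genes reach 1.03 (Cgas).

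The interferon genes at the end of the pathway were barely counted. None of the 7 listed passed the filter on low counts. Without that filter edgeR tested 6 of them and called 0, with 2 at an unadjusted p under 0.05 (Ifnl2 and Ifnl3), and DESeq2 gave an adjusted p for Ifnb1 alone (log2 fold change 1.57, SE 0.97, adjusted p = 0.586). Ifnb1 had 2, 4, 0 and 2 counts after saline and 4, 7, 3 and 3 after PFSUV-IMQ, and the lambda interferon gene Ifnl2 had 0 in every saline tumor and 3, 6, 1 and 0 after PFSUV-IMQ. Ifnl3 had 0 after saline and 0, 2, 0 and 3 after PFSUV-IMQ. Ifna1 was at 0 in all 8 tumors, and Ifna2, Ifna4 and Ifna5 had at most 2 counts in any tumor. A count of 0 allows up to 3 counts, and at these counts no difference passed adjustment.

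The genes whose profile over the 8 tumors was nearest to the mean of the 3 receptors were Parp14, Oas3, Phf11b, Ifi203-ps and Oasl2. Likeness was the root mean square difference in centred log2 CPM, 0.129 for Parp14 and 0.190 for Oasl2, against 0.220 to 0.288 for the receptors themselves. For the mean of Mavs, Tbk1 and Tank the nearest were Ddhd1, Helb, BC005537, Cul2 and Snx2, at 0.0661 to 0.106. The 3 genes behind that mean lay 0.247 to 0.435 from it, so it stood for none of them closely. Ifi203-ps is a pseudogene of a multigene family and its reads are uncertain.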

How the data were processed

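RNA from 8 tumors was sequenced as KAPA mRNA HyperPrep libraries. The authors deposited raw read counts per gene, and a table of signal values that the file shows to be the counts divided by a size factor per tumor (largest relative departure 5.4e-10). The second table gave gene symbols and the authors' size factors. For alignment and counting the methods name TopHat 2.0.12 and HTSeq 0.6.1, with edgeR 3.28.1, whereas the submitters' processing notes name Trimmomatic 0.38, HISAT2 2.1.0 and featureCounts 2.0.0. The genome build is not given in the sources used here. All 55536 identifiers are in GENCODE M21 (GRCm38), which supplied coordinates and lengths.

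Groups came from the sample titles. Genes were tested with edgeR 4.0.16 in R 4.3.3 (TMM, filterByExpr, glmQLFit and glmQLFTest) and called at an adjusted p under 0.05 with no fold limit. SE was the log2 fold change divided by the square root of F. Log2 CPM used a prior count of 2. Joins and summaries used pandas 2.3.3 (Python 3.11.15). The fits were tested on simulated data. The replicate number was not a term of the model. Alternatives were DESeq2 1.42.0 (Wald test), other scalings and filters, a fold limit, the replicate number as a block, a prior count of 0.5, other gene groupings for the contrast, and each tumor left out. Tumors of a group differed beyond sampling noise. The labels name no mouse per tumor, so p-values measure the spread between these tumors. Mitochondrial genes took 1.37 to 6.65% of counts. Of the 50-base words in the longest transcript of each gene, at most 1.37% (Zc3hav1) also occurred in transcripts of other genes.

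The genes and lists were chosen with earlier results of these data known. All 9 genes are named, and in each pathway role up to 3 called genes with the smallest adjusted p, or, with none called, the tested gene with the smallest. The 5 nearest genes by profile are named for both means. Protein sequences were not used here.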

Additional observations from a re-analysis of the deposited data

Results flagged for a closer look

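Of 40 groups of 4 tumors checked, 5 held a tumor far from the other three, where chance gives about 1 in 20. In each, the gap to the nearest tumor exceeded the 95% critical share of the range of the group (Dixon). Ifih1 was at 21.2 CPM in Control replicate 5, against 41.7 to 44.1 CPM in the other saline tumors. In IMQNP replicate 2, Dhx58 was at 210.2 CPM (others 79.6 to 94.4), Ikbke at 167 CPM (others 56.3 to 71.0), Zbp1 at 590 CPM (others 200.2 to 264) and Irf7 at 848 CPM (others 387 to 425). The calls of Ifih1, Dhx58, Zbp1 and Irf7 held without any 1 tumor in edgeR, and Ikbke was called in none of those 8 fits.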

How the results depend on the processing

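Ddx58, Ifih1, Dhx58 and Ddx60 kept their call and direction under every alternative run, with log2 fold changes of 2.34 to 2.73, 2.93 to 3.55, 3.09 to 3.68 and 3.21 to 4.02 when each tumor was left out. Across those fits 4 to 5 of the 9 genes, 7 to 10 other pathway genes and 214 to 429 of all tested genes were called, Zc3hav1 spanned 1.10 to 1.29 (called in 7 of 8), and the contrast of receptors with adaptor and kinases 2.39 to 2.56. Log2 fold changes spanned -0.30 to -0.13 for Mavs, 0.58 to 1.14 for Tbk1, 0.93 to 1.61 for Ikbke and 0.21 to 0.60 for Tank, none of them called. The contrast was 2.72 without Ikbke and 2.19 with the accessory sensors. DESeq2 called 905 genes (729 higher, 176 lower) and 6 of the 9, adding Ikbke, as did no filter on low counts. Optn lost its call without the filter (adjusted p = 0.0630, edgeR) and under a limit of 1 on the log2 fold change.

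Both groups have replicates numbered 1, 3 and 4, of different mice. Deviations of same-numbered tumors from their group means correlated at r = 0.29, -0.27 and -0.32. Differently numbered tumors spanned r of -0.64 to 0.68. So few correlations cannot decide whether the numbers pair tumors, and they were not taken to do so. With the replicate number as a block, 821 genes were called (519 higher, 302 lower) and 5 of the 9. In that fit Zc3hav1 was at 1.17 (adjusted p = 0.0514, edgeR), Ikbke at 1.13 (adjusted p = 0.0381, edgeR), Optn at 0.65 (adjusted p = 0.0592, edgeR) and the contrast at 2.31. Log2 fold changes under the block were -0.0056 for Tank, -0.036 for Helb, -0.014 for BC005537, -0.034 for Cul2 and -0.084 for Snx2, each above 0 without it. Number 2 occurs only among the PFSUV-IMQ tumors and number 5 only among the saline tumors. Each of these tumors then has a block of its own, so the treatment estimate rests on numbers 1, 3 and 4. Any further cause of these changes was not tested.

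With 4 tumors a group, differences the size of those of Tbk1, Ikbke and Tank were estimated with SE of 0.29 to 0.38, and a missed threshold does not show that they did not change. Counts of the interferon genes were too low for the filter, and without it 0 of the 6 tested were called by edgeR (2 at an unadjusted p under 0.05).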
